A study of Mus musculus with 18 samples.

Results

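The genes described here are the 10 members of the G1 switch that were chosen by name from the study's table of 23418 genes. They are the kinases Cdk4 and Cdk6, the D-type cyclins Ccnd1, Ccnd2 and Ccnd3, the Cip/Kip inhibitors Cdkn1a (p21), Cdkn1b (p27) and Cdkn1c (p57), and the INK4 inhibitors Cdkn2c (p18) and Cdkn2d (p19). The rule is a list of names with no threshold on a measured value, and each name was found in the table. The cells were mouse leukemia cells of the C57BL/6 strain that had been transformed with MLL-AF9, MLL-AF6 or MLL-AF1p, fusions of the histone methyltransferase MLL to different partner proteins. Cultures ran for 6 days on either DMSO or 6 µM of MI-2-2, a compound that keeps menin from binding MLL, with DMSO at 0.25% in all 6 groups. On day 3 the medium was renewed, viable density was restored and the compound was added again. Each group had 3 libraries, 18 in all, and every group carried a fusion, so untransformed cells are not part of the comparisons. Whether each transformed line is 1 clone, how the constructs were introduced and whether the 3 libraries of a group came from separate cultures is not given in the sources used here, so p-values cover no more than library-to-library spread, part of which may be technical.

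A cell in G1 commits to DNA synthesis when D-type cyclins bind Cdk4 or Cdk6 and the active kinase phosphorylates the retinoblastoma protein, which then releases the E2F factors that switch on S phase genes. INK4 proteins bind Cdk4 and Cdk6 directly and keep the cyclin out. Cip/Kip proteins act mainly on the Cdk2 complexes of the later steps and can also help cyclin D and its kinase to assemble. In blood cells Cdk6 is known as the kinase gene that MLL fusion leukemias depend on, Ccnd2 and Ccnd3 are the D cyclins most used, and several of the inhibitors rise as myeloid cells mature and leave the cell cycle.

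The 2 kinase genes encode closely related proteins, and with MI-2-2 Cdk6 passed the test in each construct and Cdk4 in none. Their responses were not tested against each other. The bases ahead of their annotated starts are shown as description. The sequences are from RefSeq on GRCm38.p6, run 5′ to 3′ on the plus strand, and cover the 250 bases before the start. Capitals mark the E-box CACGTG, the site read by the Myc family and related factors, which reads alike on both strands.
Cdk4, chr10:127063285-127063534: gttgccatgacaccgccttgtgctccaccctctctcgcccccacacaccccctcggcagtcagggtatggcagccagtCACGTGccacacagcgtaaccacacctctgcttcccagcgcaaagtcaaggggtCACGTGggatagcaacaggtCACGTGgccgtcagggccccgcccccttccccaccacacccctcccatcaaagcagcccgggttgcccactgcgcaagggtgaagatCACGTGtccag
Cdk6, chr5:3343643-3343892: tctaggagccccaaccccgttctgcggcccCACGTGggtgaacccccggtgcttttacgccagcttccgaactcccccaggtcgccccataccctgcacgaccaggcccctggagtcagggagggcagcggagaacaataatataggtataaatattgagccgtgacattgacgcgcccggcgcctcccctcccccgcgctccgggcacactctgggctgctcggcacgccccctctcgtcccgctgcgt
Cdk4 holds 4 E-boxes, beginning 172, 118, 98 and 11 bases before the start, and Cdk6 holds 1, beginning 220 bases before it. At least 1 E-box lay in 7.15% of 32851 mouse promoters of 300 bases (250 before the start and 50 after), and at least 4 lay in 8 of them, 0.0244%. Promoters were matched for 7 members, 10 promoters in all, and besides Cdk4 and Cdk6 only a promoter of Cdkn2c held an E-box. The E2F motifs TTTCCCGC, TTTGGCGC, TTTGCCGC and TTTCGCGC, searched on both strands and present in 1.07%, 0.514%, 0.441% and 0.323% of all promoters, were in none of the 10. No E-box of Cdk4 or Cdk6 shared a base with these motifs, with the GC box GGGCGG (35.7% of all promoters) or with CCAAT (37.4%). A match is a string of letters and not a measured binding site. Whether E-boxes bear on the response to MI-2-2 was not tested.

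Levels are given as RPKM, reads per kilobase of gene per 1000000 counted reads, which adjusts for gene length and library depth. RPKM does not adjust for shifts in the make-up of the RNA between libraries, and calls under other scalings are given below. Depth was 21.18 to 30.67 M counted reads (M, 1000000) in the MLL-AF9 and MLL-AF6 libraries and 48.88 to 56.3 M in the MLL-AF1p libraries. A gene was tested if 3 or more of the 18 libraries reached an RPKM of 1, which 11238 genes did, and all 10 members were among them. Cdkn1c reached an RPKM of 1 only in the 3 MI-2-2 libraries of MLL-AF6, and Ccnd1 only in the 6 MI-2-2 libraries of MLL-AF6 and MLL-AF1p, so both passed through groups in which they are high and had to differ between groups. Changes are differences of mean log2(RPKM + 0.5) from limma with Benjamini-Hochberg adjustment over all 11238 genes, with the standard error (SE) or 95% interval. The words rose and fell are kept for an adjusted p under 0.05, and the added 0.5 makes changes of low genes look smaller than their RPKM ratios.

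The cells expressed myeloid genes. The 8 neutrophil markers summed to 2148 to 3957 RPKM across the 9 DMSO libraries and to 18125 to 34828 across the 9 MI-2-2 libraries, with none at 0 in all 3 libraries of any group. The 8 macrophage markers summed to 144 to 186, 204 to 289 and 87.6 to 91.9 RPKM in DMSO libraries of MLL-AF9, MLL-AF6 and MLL-AF1p, and to 1226 to 1573, 2088 to 2818 and 506 to 567 with MI-2-2. The 8 markers of myeloid progenitors summed to 5807 to 8804 RPKM in MLL-AF9 under DMSO and 2094 to 2315 with MI-2-2, to 4967 to 5294 and 2056 to 2602 in MLL-AF6, and to 6045 to 8500.5 and 6658 to 7131 in MLL-AF1p. In every group 2 or 3 of these 8 progenitor markers stayed under an RPKM of 1 in all 3 libraries. The progenitor marker Cd34 was listed at 0 in all DMSO libraries of MLL-AF9 and MLL-AF6. Markers of B cells, T cells, erythroid cells and stroma summed to at most 2.89 RPKM in any library, with Ms4a1, Cd3e and Hbb-b1 at 0 in every group. The 4 mast cell and basophil markers summed to 5.08 to 27.0 RPKM, with Fcer1a and Tpsab1 at 0 in every group, and the 4 megakaryocyte markers to 1.10 to 5.48. The neutrophil and macrophage sums moved with treatment in every construct, and their part in the values below was not tested. In such bulk RNA, fewer cells of a type and less RNA per cell cannot be told apart.

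Cdk4 was the highest of the 10 genes in every group, and the members fell into a high and a low tier. Under DMSO, mean Cdk4 was 177 ± 2.38 RPKM in MLL-AF1p, 138 ± 26.3 in MLL-AF9 and 134 ± 23.4 in MLL-AF6 (SD, n = 3 throughout). Next came Cdkn2d, Ccnd3, Cdkn1a, Cdkn1b and Cdk6, all between 26.4 and 58 RPKM on average in the DMSO groups. Within that tier the ranges of most neighbours overlapped under DMSO, so their order is not resolved, while the gap from Cdk4 to the next gene had no overlap in any group. Cdkn2c, Ccnd2, Ccnd1 and Cdkn1c formed the low tier, at or below 1.95 RPKM on average under DMSO apart from Cdkn2c in MLL-AF6 (3.08 ± 0.93) and MLL-AF1p (14 ± 0.695). Within the low tier under DMSO, ranges overlapped between Ccnd2 and Cdkn2c and between Cdkn2c and Cdkn1c in MLL-AF9, between Ccnd1 and Ccnd2 and between Ccnd2 and Cdkn1c in MLL-AF6, and between Ccnd1 and Cdkn1c in MLL-AF1p.

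**Figure D1:**
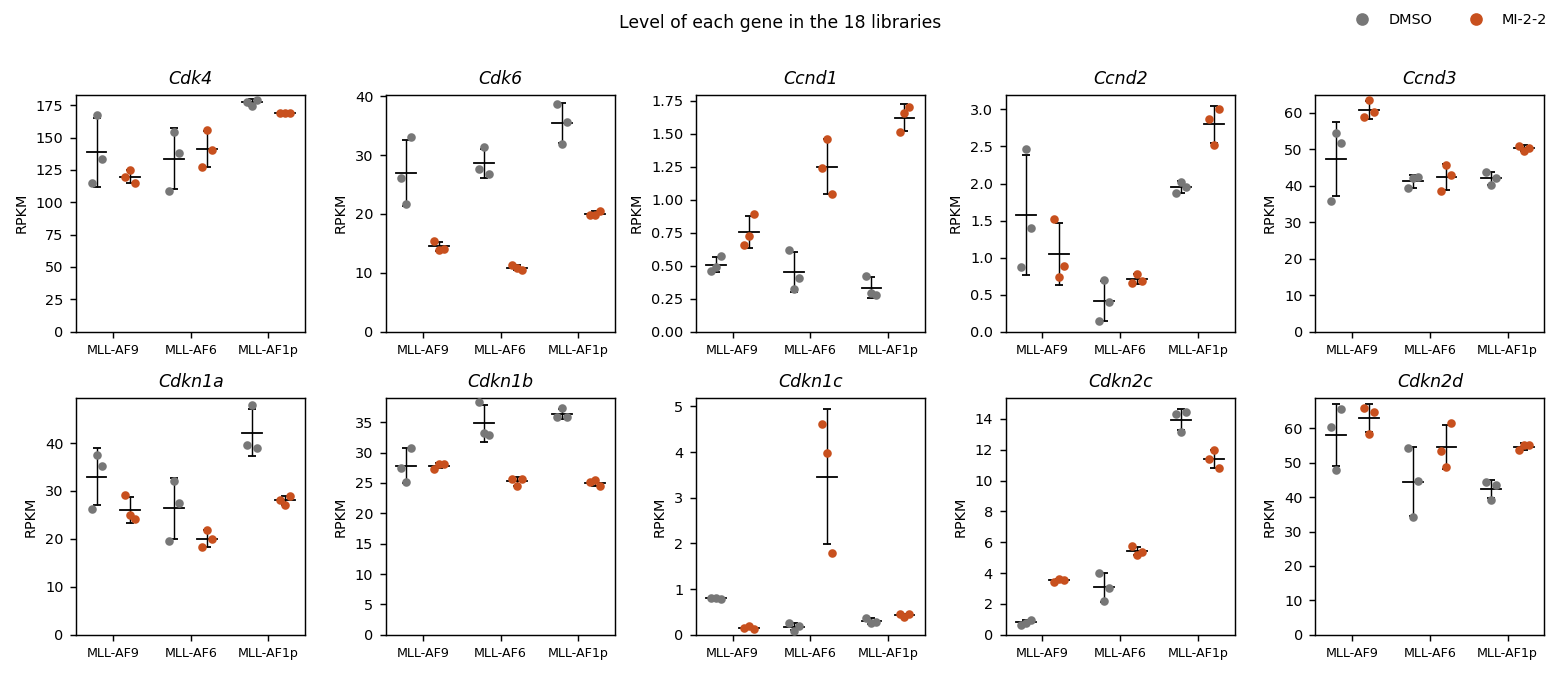
RPKM of each of the 10 genes (vertical axes, linear, each from 0) in the 18 libraries, with grey points for DMSO and orange points for MI-2-2, replicates 1 to 3 from left to right within a group. Horizontal bars are group means and whiskers the SD (n = 3); Cdk6 is lower with MI-2-2 in all 3 constructs with no overlap, whereas Cdkn1c is above 1 RPKM only in MLL-AF6 with MI-2-2.

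Among the kinases, Cdk6 fell in all 3 constructs and Cdk4 passed the test in none. Cdk6 stood at 26.1, 21.8 and 33.0 RPKM in the MLL-AF9 DMSO libraries and at 15.4, 13.9 and 14.1 with MI-2-2. The corresponding MLL-AF6 values were 27.7, 31.4 and 26.7 under DMSO and 11.4, 10.8 and 10.5 with MI-2-2. MLL-AF1p libraries gave 38.7, 31.9 and 35.7 under DMSO and 19.8, 19.8 and 20.6 with MI-2-2. In each construct every treated library was below every DMSO library, and the treated MLL-AF6 libraries were the lowest of the 18. For MLL-AF9, MLL-AF6 and MLL-AF1p the log2 changes were −0.86 ± 0.114, −1.35 ± 0.114 and −0.80 ± 0.114 (SE; limma, Benjamini-Hochberg adjusted p = 1.17e-05, 8.82e-08 and 4.13e-05). Among all genes tested, 11.4% were called lower in all 3 constructs.

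The size of the Cdk6 fall differed between constructs. It was greater in MLL-AF6 than in MLL-AF9 by 0.50 on the log2 scale (95% interval of the difference −0.84 to −0.15; limma, Benjamini-Hochberg adjusted p = 0.0279) and than in MLL-AF1p by 0.55 (0.21 to 0.89; limma, Benjamini-Hochberg adjusted p = 0.0175). The falls in MLL-AF9 and MLL-AF1p differed by 0.05 (−0.29 to 0.40; limma, Benjamini-Hochberg adjusted p = 0.823). The difference between MLL-AF6 and MLL-AF9 was not called under quantile normalization (−0.35) or median centring (−0.33), where limma gave Benjamini-Hochberg adjusted p = 0.110 and 0.123, nor with any 1 of 4 libraries left out, MLL-AF9 DMSO replicate 2, MLL-AF9 MI-2-2 replicate 1, MLL-AF6 DMSO replicate 2 and MLL-AF6 MI-2-2 replicate 3 (−0.36, −0.45, −0.43 and −0.47). With any 1 replicate number left out of every group, MLL-AF6 differed in the Cdk6 effect by call from neither MLL-AF9 (−0.69 to −0.31; limma, Benjamini-Hochberg adjusted p = 0.0613 to 0.136) nor MLL-AF1p (0.42 to 0.68; 0.0510 to 0.129).

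Cdk4 values were 115, 167 and 133 RPKM under DMSO and 119, 125 and 115 with MI-2-2 in MLL-AF9. MLL-AF6 gave 108, 154 and 138 under DMSO and 127, 156 and 140 with MI-2-2, and MLL-AF1p gave 178, 174 and 179 under DMSO and 169 in each of the 3 treated libraries. Groups overlapped in MLL-AF9 and MLL-AF6, where the DMSO library numbered 1 was the lowest of its group, and did not overlap in MLL-AF1p, where the RPKM ratio of the means was 0.956. The log2 changes were −0.19 (95% interval −0.46 to 0.07), 0.09 (−0.18 to 0.35) and −0.06 (−0.33 to 0.20), and limma gave Benjamini-Hochberg adjusted p = 0.204, 0.568 and 0.703. With MLL-AF9 DMSO replicate 1 left out, the MLL-AF9 fall in Cdk4 was called (−0.32; limma, Benjamini-Hochberg adjusted p = 0.0392), and with MLL-AF6 DMSO replicate 1 left out the MLL-AF6 value turned to −0.05. Cdk4 shares exon sequence with Tspan31 on the opposite strand, and since the library kit does not mark the strand, reads of this overlap cannot be told apart. Tspan31 itself stood at 119 ± 29.9 RPKM under DMSO and 69.1 ± 13.5 with MI-2-2 in MLL-AF9, at 94.2 ± 19.7 and 71.6 ± 9.78 in MLL-AF6, and at 78.9 ± 3.10 and 65.7 ± 3.73 in MLL-AF1p. Exons of Cdk6 (Gm17590), Ccnd2 (Gm43126 and 9330179D12Rik), Cdkn1a (AC167363.2) and Cdkn1c (Gm44732) also overlap the opposite-strand genes in brackets. Of these only 9330179D12Rik has values, at up to 0.0368 RPKM. Reads from the others may have been counted for the members, which was not tested.

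As a share of the summed RPKM of both kinases, Cdk6 made up 16.6 ± 4.47%, 17.8 ± 2.22% and 16.7 ± 1.22% under DMSO in MLL-AF9, MLL-AF6 and MLL-AF1p. With MI-2-2 the shares were 10.8 ± 0.703%, 7.22 ± 0.884% and 10.6 ± 0.209%. The share was lower in every treated library than in any DMSO library of the same construct. In MLL-AF9 the ranges nearly met, with 11.53% the lowest under DMSO and 11.45% the highest with MI-2-2. These shares rest on the same values as the tests above and carry no test of their own.

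**Figure D2:**
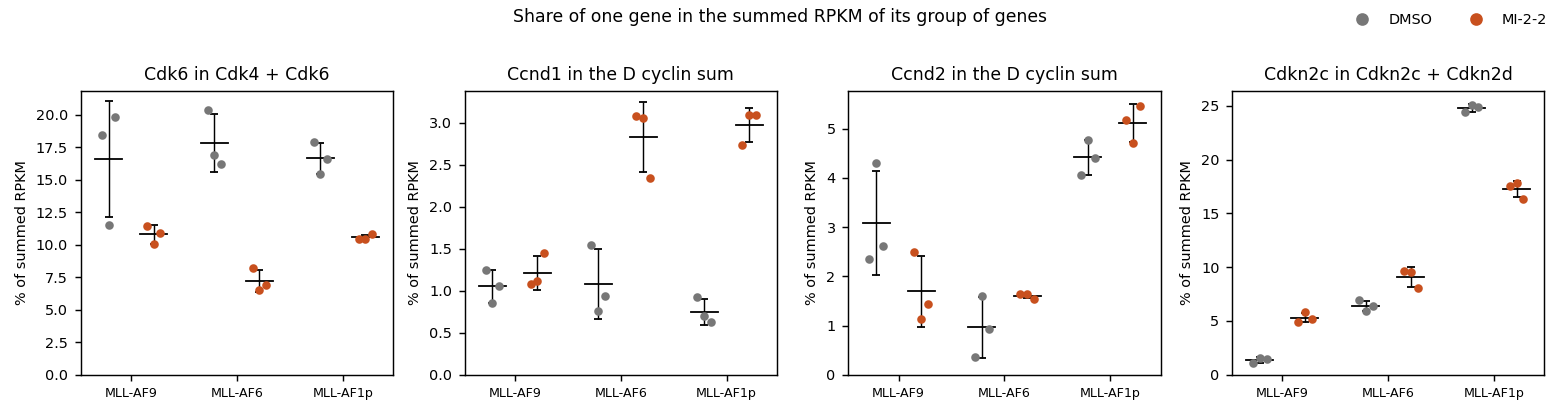
Share of Cdk6 in the sum of Cdk4 and Cdk6, of Ccnd1 and of Ccnd2 in the sum of the 3 D cyclins, and of Cdkn2c in the sum of Cdkn2c and Cdkn2d (vertical axes, % of summed RPKM, each from 0), for 18 libraries in grey (DMSO) and orange (MI-2-2). Bars are means and whiskers the SD (n = 3); the Cdk6 share is lower with MI-2-2 in all 3 constructs, and the Cdkn2c share is higher in MLL-AF9 and MLL-AF6 and lower in MLL-AF1p.

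Ccnd3 made up nearly all D cyclin RNA in these cells, and Ccnd1, the D cyclin with the least RNA in 4 of the 6 groups, changed most by ratio in MLL-AF6 and MLL-AF1p. Ccnd3 accounted for 94.5 to 98.1% of the summed D cyclin RPKM in the 9 DMSO libraries and for 91.5 to 97.7% in the 9 treated ones. Its gene length in the table is 6189 bases, against 3801 for Ccnd1 and 5776 for Ccnd2, and RPKM is already divided by that length.

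Ccnd1 stood at 0.462, 0.491 and 0.570 RPKM under DMSO and 0.658, 0.722 and 0.894 with MI-2-2 in MLL-AF9, from 39 to 78 reads per library. In MLL-AF6 it stood at 0.617, 0.326 and 0.405 and at 1.24, 1.46 and 1.05, and in MLL-AF1p at 0.425, 0.295 and 0.280 and at 1.51, 1.66 and 1.70. Treated libraries were above all DMSO libraries in each construct, with the widest gap in MLL-AF1p. The RPKM ratio of the means was 4.87 in MLL-AF1p, 2.78 in MLL-AF6 and 1.49 in MLL-AF9. On the log2(RPKM + 0.5) scale these changes were, in the same order, 1.35 ± 0.124, 0.89 ± 0.124 and 0.32 ± 0.124 (SE; limma, Benjamini-Hochberg adjusted p = 4.59e-07, 2.17e-05 and 0.0400). Of all genes tested, 8.64% were called higher in all 3 constructs. Ccnd1 passed the filter on low values only through treated MLL-AF6 and MLL-AF1p libraries, so its rises there were favoured by the filter.

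The MLL-AF9 call for Ccnd1 was the weakest of these. It did not pass under quantile normalization (0.10), median centring (0.24), voom on the recovered reads (0.54) or a fit of MLL-AF9 alone (0.32), where limma gave Benjamini-Hochberg adjusted p = 0.544, 0.110, 0.0694 and 0.0502. Nor did it pass with any 1 of 5 libraries left out, which were DMSO replicates 1 and 2 and MI-2-2 replicates 2 and 3 of MLL-AF9 and MI-2-2 replicate 2 of MLL-AF1p (0.24 to 0.34; limma, Benjamini-Hochberg adjusted p = 0.0505 to 0.160), or with any 1 replicate number left out of every group. The rise was greater in MLL-AF1p than in MLL-AF9 by 1.03 (95% interval 0.66 to 1.41; limma, Benjamini-Hochberg adjusted p = 0.000430) and in MLL-AF6 than in MLL-AF9 by 0.57 (0.20 to 0.94; limma, Benjamini-Hochberg adjusted p = 0.0214). The latter was not called with MLL-AF9 MI-2-2 replicate 1, MLL-AF6 DMSO replicate 2 or MLL-AF6 MI-2-2 replicate 2 left out (0.51, 0.48 and 0.49). Nor was it called without replicate 2 or replicate 3 of every group (0.38 and 0.66). Between MLL-AF1p and MLL-AF6 the rise differed by 0.46 (0.09 to 0.84; limma, Benjamini-Hochberg adjusted p = 0.0561). That difference was called with quantile normalization (0.50) and with a constant prior (0.46). It was also called without MLL-AF6 DMSO replicate 2, MLL-AF6 MI-2-2 replicate 2 or MLL-AF1p DMSO replicate 1 (0.56, 0.55 and 0.54). Ccnd1 shares exon sequence with the opposite-strand gene listed as Oraov1, which for MLL-AF9, MLL-AF6 and MLL-AF1p averaged 9.79 ± 0.448, 10.7 ± 0.803 and 8.41 ± 0.523 RPKM under DMSO and 7.44 ± 0.638, 7.57 ± 0.275 and 7.70 ± 0.358 with MI-2-2. Oraov1 means were thus lower with MI-2-2 where Ccnd1 was higher, and reads of the overlap cannot be assigned to either gene.

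Ccnd2, a D cyclin driven by growth factor signals in blood cells, passed the MI-2-2 test in no construct and varied widely between MLL-AF9 and MLL-AF6 libraries. It stood at 0.873, 2.47 and 1.40 RPKM under DMSO and 1.52, 0.737 and 0.891 with MI-2-2 in MLL-AF9, and at 0.143, 0.692 and 0.403 and 0.660, 0.780 and 0.689 in MLL-AF6. MLL-AF1p libraries were at 1.87, 2.02 and 1.96 and at 2.87, 2.52 and 3.01, without overlap. Log2 changes were −0.39 (95% interval −0.91 to 0.14), 0.45 (−0.08 to 0.98) and 0.43 (−0.10 to 0.96), with limma, Benjamini-Hochberg adjusted p = 0.201, 0.134 and 0.174. MLL-AF9 DMSO replicate 1 was the lowest DMSO library there, and without it Ccnd2 was called lower in MLL-AF9 (−0.65), while without MLL-AF6 DMSO replicate 2 it was called higher in MLL-AF6 (0.67). Fitted alone, the 6 MLL-AF1p libraries gave a call for the same 0.43.

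Ccnd3, a D cyclin widely used by blood cells, rose in MLL-AF9 by 0.38 ± 0.114 (SE; limma, Benjamini-Hochberg adjusted p = 0.0102). Its MLL-AF9 values were 35.7, 54.5 and 51.7 RPKM under DMSO and 58.6, 63.5 and 60.0 with MI-2-2, without overlap, and the DMSO library numbered 1 was the lowest of the 18. Fitted alone, the MLL-AF9 libraries gave no call (limma, Benjamini-Hochberg adjusted p = 0.0938), nor did the fit without replicate 3 of every group (0.0699). In MLL-AF6 it stood at 39.2 to 42.4 under DMSO and 38.5 to 45.6 with MI-2-2 (0.04, 95% interval −0.21 to 0.28), and in MLL-AF1p at 40.1 to 43.7 and 49.4 to 50.9 (0.26, 0.01 to 0.50), with limma, Benjamini-Hochberg adjusted p = 0.811 and 0.0780. The MLL-AF1p value was called with MLL-AF1p fitted alone (0.26; limma, Benjamini-Hochberg adjusted p = 0.00191), with median centring (0.30) and without MLL-AF9 DMSO replicate 1 or replicate 2 (0.26). The effects did not pass the test of a difference between constructs (F test in limma, Benjamini-Hochberg adjusted p = 0.181), though without MLL-AF9 DMSO replicate 2 the effect was called lower in MLL-AF6 than in MLL-AF9 (−0.46). Ccnd3 overlaps Bysl on the opposite strand, which stood at 7.21 to 13.6 RPKM on average. Ccnd3 also has an annotated pseudogene copy elsewhere, and part of its reads are thus uncertain.

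**Figure D3:**
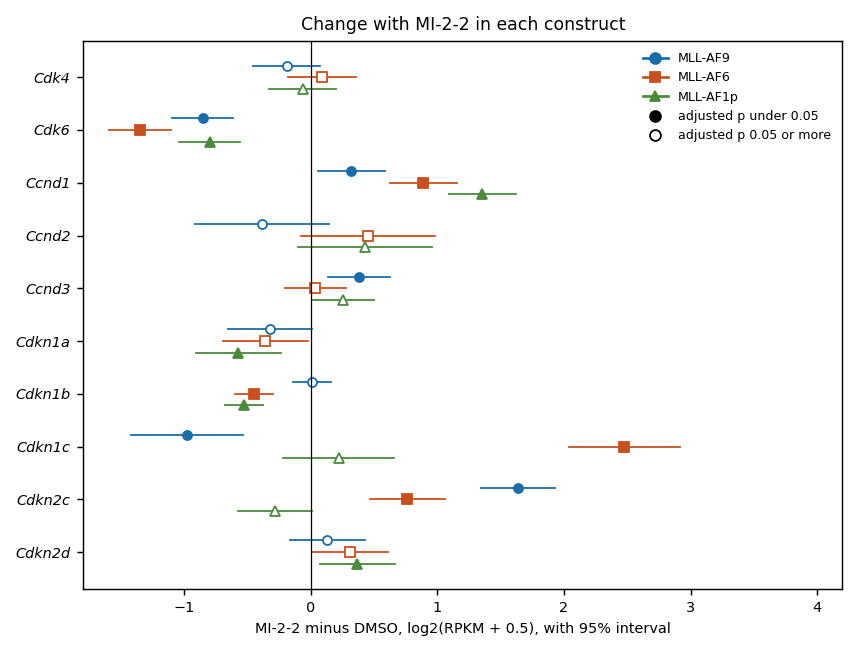
Difference between MI-2-2 and DMSO in mean log2(RPKM + 0.5) for each gene (rows) with its 95% interval, in blue circles for MLL-AF9, orange squares for MLL-AF6 and green triangles for MLL-AF1p. Filled symbols have an adjusted p under 0.05; Cdk6 is filled left of 0 in all 3 constructs, Ccnd1 right of 0 in all 3, and the Cdkn1c symbols spread from −0.98 to 2.48.

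Over the 10 genes, MI-2-2 was followed by 3 rises and 2 falls in MLL-AF9, 3 rises and 2 falls in MLL-AF6, and 2 rises and 3 falls in MLL-AF1p. Across all genes tested, the share that rose was 28.5%, 18% and 19.1% and the share that fell 27.9%, 38.9% and 26.3%, or 56.4%, 57% and 45.4% in either direction, so 5 of 10 members called is near the background in each construct. The member counts include Ccnd1 and Cdkn1c, which passed the filter on low values only through treated groups in which they are high. With median centring 41.2%, 41.9% and 49.3% of the calls were rises in MLL-AF9, MLL-AF6 and MLL-AF1p, against 50.5%, 31.6% and 42.1% in the values above. MLL-AF9 DMSO replicate 1 moved the count of falls in that construct from 2 to 5 when left out. The MI-2-2 and DMSO libraries did not overlap for 5 members in MLL-AF9, 5 in MLL-AF6 and all 10 in MLL-AF1p, against 57.2%, 60.9% and 69.2% of all genes tested.

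The Cip/Kip inhibitors took separate courses. Cdkn1a, the p53-responsive inhibitor p21, fell in MLL-AF1p and did not pass in the other constructs. Its values there were 39.6, 47.9 and 39.0 RPKM under DMSO and 28.2, 27.1 and 29.0 with MI-2-2, a change of −0.57 ± 0.157 (SE; limma, Benjamini-Hochberg adjusted p = 0.00758), which was not called without replicate 2 or replicate 3 of every group (−0.45 and −0.65). All 3 treated libraries were below the lowest DMSO library. In MLL-AF9 the values were 26.2, 37.5 and 35.1 and then 29.1, 25.01 and 24.1, and those of MLL-AF6 were 19.6, 32.1 and 27.4 and then 18.4, 21.9 and 19.9. Groups overlapped in both, and the overlap came from the DMSO library numbered 1 of each. The changes were −0.32 (95% interval −0.65 to 0.01) and −0.36 (−0.69 to −0.03), with limma, Benjamini-Hochberg adjusted p = 0.0931 and 0.0610. With that library left out of its own construct, the values were −0.47 and −0.56, both called (limma, Benjamini-Hochberg adjusted p = 0.0167 and 0.00355). Median centring (−0.40) and the loss of MLL-AF6 DMSO replicate 1 (−0.32) also gave a call in MLL-AF9, and the loss of MLL-AF9 DMSO replicate 1 (−0.36) one in MLL-AF6, where limma gave Benjamini-Hochberg adjusted p = 0.0391, 0.0376 and 0.0358. No difference between constructs passed for Cdkn1a (F test in limma, Benjamini-Hochberg adjusted p = 0.547).

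Cdkn1b, the inhibitor p27 that holds cells in quiescence, fell in MLL-AF6 and MLL-AF1p, by amounts that exceeded its value in MLL-AF9. In MLL-AF6 it stood at 38.3, 33.2 and 32.9 RPKM under DMSO and 25.7, 24.5 and 25.6 with MI-2-2. In MLL-AF1p it stood at 35.9, 37.3 and 35.9 and at 25.1, 25.5 and 24.5, and in MLL-AF9 at 27.5, 25.1 and 30.8 and at 27.3, 28.1 and 28.1. All 9 treated libraries lay between 24.5 and 28.1, whereas under DMSO the MLL-AF9 libraries were below those of the other constructs. The log2 changes were −0.45 ± 0.0706 in MLL-AF6 and −0.53 ± 0.0706 in MLL-AF1p (SE; limma, Benjamini-Hochberg adjusted p = 6.22e-05 and 2.22e-05). The MLL-AF9 change was 0.01 (95% interval −0.14 to 0.16; limma, Benjamini-Hochberg adjusted p = 0.945), and its sign depended on the scaling. The effect was lower in MLL-AF6 than in MLL-AF9 by 0.46 (interval of the difference −0.67 to −0.25) and in MLL-AF1p than in MLL-AF9 by 0.54 (−0.75 to −0.32), with limma, Benjamini-Hochberg adjusted p = 0.00287 and 0.000843. Between MLL-AF1p and MLL-AF6 it differed by −0.08 (−0.29 to 0.13; limma, Benjamini-Hochberg adjusted p = 0.587).

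Cdkn1c, the imprinted inhibitor p57, moved in opposite directions in MLL-AF6 and MLL-AF9. It rose in MLL-AF6 from 0.249, 0.0917 and 0.186 RPKM (10 to 29 reads) to 4.61, 3.98 and 1.79 (177 to 545 reads), with replicate 3 the lowest of the treated libraries. In MLL-AF9 it fell from 0.806, 0.803 and 0.777 RPKM (68 to 87 reads) to 0.150, 0.201 and 0.122 (10 to 22 reads). MLL-AF1p libraries stood at 0.373, 0.254 and 0.271 and at 0.451, 0.393 and 0.445. Groups did not overlap in any construct. The RPKM ratio of the means was 19.7 in MLL-AF6, 0.199 in MLL-AF9 and 1.44 in MLL-AF1p. The log2(RPKM + 0.5) changes were 2.48 ± 0.207, −0.98 ± 0.207 and 0.22 ± 0.207 (SE; limma, Benjamini-Hochberg adjusted p = 7.72e-08, 0.000844 and 0.404). Cdkn1c passed the filter on low values only through the treated MLL-AF6 libraries. The p-values for its rise there, and for differences from that rise, were thus favoured by the filter. The effect in MLL-AF6 was above that in MLL-AF9 by 3.46 (95% interval 2.83 to 4.08; limma, Benjamini-Hochberg adjusted p = 6.35e-07), and that in MLL-AF1p was above MLL-AF9 by 1.20 (0.58 to 1.82; 0.00532) and below MLL-AF6 by 2.26 (−2.88 to −1.64; 5.70e-05). In treated MLL-AF6 cells Cdkn1c made up 7.06 ± 2.94% of the summed Cip/Kip RPKM, against 0.292 ± 0.144% under DMSO. In MLL-AF9 the share was 1.30 ± 0.160% under DMSO and 0.292 ± 0.0747% with MI-2-2.

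Of the INK4 inhibitors, Cdkn2c rose in MLL-AF9 and MLL-AF6 and did not in MLL-AF1p, where it started highest. In MLL-AF9 it stood at 0.650, 0.780 and 0.963 RPKM under DMSO (16 to 31 reads) and at 3.44, 3.59 and 3.54 with MI-2-2 (83 to 113 reads). In MLL-AF6 it stood at 4.03, 2.17 and 3.04 and at 5.74, 5.18 and 5.39, and in MLL-AF1p at 14.3, 13.2 and 14.4 and at 11.4, 12.0 and 10.8. Treated libraries lay above all DMSO libraries in MLL-AF9 and MLL-AF6 and below them in MLL-AF1p. The log2 changes were 1.64 ± 0.138, 0.76 ± 0.138 and −0.28 ± 0.138 (SE; limma, Benjamini-Hochberg adjusted p = 8.24e-08, 0.000242 and 0.107). The MLL-AF1p value was called lower by voom on the recovered reads (−0.29; limma, Benjamini-Hochberg adjusted p = 0.0161), with MLL-AF1p fitted alone (−0.28; 0.00472), and without MLL-AF6 DMSO replicate 1 or replicate 2 (−0.28; 0.0343 and 0.0287). All pairs of constructs differed in effect in the fit of all libraries. MLL-AF6 lay below MLL-AF9 by 0.88 (95% interval −1.29 to −0.46), MLL-AF1p below MLL-AF9 by 1.92 (−2.34 to −1.50) and MLL-AF1p below MLL-AF6 by 1.04 (−1.46 to −0.63), with limma, Benjamini-Hochberg adjusted p = 0.00339, 5.58e-06 and 0.00100. Without replicate 3 of every group the first and last of these were not called (−0.95 and −0.999; limma, Benjamini-Hochberg adjusted p = 0.0987 and 0.0991).

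Cdkn2d, the other INK4 inhibitor in the group, was far more abundant and moved less. In MLL-AF1p it rose from 44.3, 39.2 and 43.6 RPKM to 53.6, 55.3 and 55.1, without overlap, by 0.37 ± 0.140 (SE; limma, Benjamini-Hochberg adjusted p = 0.0430). That call was lost with no filter on low values (0.37; limma, Benjamini-Hochberg adjusted p = 0.0671), with any 1 of the 6 MLL-AF1p libraries left out (0.31 to 0.40; 0.0600 to 0.135) and with any 1 of 4 libraries of the other constructs left out, MI-2-2 replicates 1 and 3 of MLL-AF9, DMSO replicate 3 of MLL-AF6 and MI-2-2 replicate 1 of MLL-AF6. In MLL-AF9 it stood at 60.5, 48.0 and 65.6 under DMSO and 66.0, 58.2 and 64.7 with MI-2-2. MLL-AF6 libraries were at 54.3, 34.3 and 44.8 and then at 53.5, 48.8 and 61.4, and the groups overlapped in both constructs. The changes were 0.13 (95% interval −0.17 to 0.42) and 0.31 (0.01 to 0.61), with limma, Benjamini-Hochberg adjusted p = 0.456 and 0.0690. The MLL-AF6 value was called higher without MLL-AF9 DMSO replicate 2, MLL-AF6 DMSO replicate 1 or MLL-AF6 MI-2-2 replicate 2 (0.31, 0.47 and 0.39) and with median centring or quantile normalization (0.39 for each).

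Cdkn2c made up 1.37 ± 0.276% of the summed RPKM of these INK4 genes in MLL-AF9 under DMSO, 6.40 ± 0.480% in MLL-AF6 and 24.8 ± 0.363% in MLL-AF1p. With MI-2-2 the shares were 5.31 ± 0.442%, 9.12 ± 0.912% and 17.2 ± 0.763%, so the 3 constructs stood closer together after treatment than before. The sum of the 5 inhibitors divided by that of Cdk4 and Cdk6 was 0.738 ± 0.125, 0.687 ± 0.156 and 0.636 ± 0.0272 under DMSO in MLL-AF9, MLL-AF6 and MLL-AF1p, and 0.900 ± 0.0600, 0.721 ± 0.0822 and 0.632 ± 0.00429 with MI-2-2. Its ranges overlapped in MLL-AF6 and MLL-AF1p and not in MLL-AF9. As a ratio of RNA levels it says nothing of protein or of kinase activity.

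Tested over the 3 constructs together, the MI-2-2 effect differed between constructs for Cdk6, Ccnd1, Cdkn1b, Cdkn1c and Cdkn2c, 5 of the 10 genes, where 52.8% of all genes tested did. The effect in MLL-AF6 exceeded that in MLL-AF9 for 2 members, Ccnd1 and Cdkn1c (9.02% of all genes), and lay below it for 3, Cdk6, Cdkn1b and Cdkn2c (24%), or 33.1% of all genes in either direction. MLL-AF1p exceeded MLL-AF9 for 2, Ccnd1 and Cdkn1c (13.6%), and lay below it for 2, Cdkn1b and Cdkn2c (21.4%), against 35.1% in either direction. MLL-AF1p exceeded MLL-AF6 for Cdk6 alone (19.5%) and lay below it for 2, Cdkn1c and Cdkn2c (11.6%), against 31.1%. The pairs share libraries and are not independent of each other. Ccnd1 and Cdkn1c passed the filter on low values only through treated groups in which they are high, so their calls are no independent support.

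The constructs were also compared before treatment, under DMSO, and these comparisons share groups as well. Cdkn2c set them furthest apart. Its RPKM in MLL-AF1p was 17.5 times that in MLL-AF9 and 4.54 times that in MLL-AF6, and in MLL-AF6 it was 3.86 times that in MLL-AF9 (log2 differences 3.48, 2.05 and 1.44; limma, Benjamini-Hochberg adjusted p = 1.46e-11, 5.16e-08 and 4.32e-07). No DMSO library of one construct overlapped those of another for this gene. Ccnd2 was lowest in MLL-AF6, at 0.261 times its RPKM in MLL-AF9, and in MLL-AF1p it was 4.73 times that in MLL-AF6 (log2 differences −1.16 and 1.47; limma, Benjamini-Hochberg adjusted p = 0.00105 and 0.000190). It had 25 to 113 reads in the MLL-AF6 DMSO libraries. No MLL-AF6 library reached an RPKM of 1 for Ccnd2, which passed the filter through the other constructs, so both differences were favoured by the filter. Cdkn1c was highest in MLL-AF9, with log2 differences of −0.95 in MLL-AF6 and −0.70 in MLL-AF1p (limma, Benjamini-Hochberg adjusted p = 0.00122 and 0.00773).

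Compared with MLL-AF9, Cdkn1b was higher under DMSO in MLL-AF6 (0.32) and MLL-AF1p (0.38) (limma, Benjamini-Hochberg adjusted p = 0.00133 and 0.000202), and Cdkn2d was lower in both (−0.39 and −0.44; limma, Benjamini-Hochberg adjusted p = 0.0267 and 0.0119). The first Cdkn2d difference was lost with any 1 of MLL-AF9 DMSO replicates 1 and 3 or MLL-AF6 DMSO replicate 2 left out (−0.36, −0.30 and −0.22), and the second without MLL-AF9 DMSO replicate 3 (−0.35). Both were lost without replicate 3 of every group (−0.32 and −0.37), and the first also with the DMSO libraries fitted alone (−0.39). Cdk4 was higher in MLL-AF1p than in MLL-AF9 (0.37) and MLL-AF6 (0.42), and Cdk6 was too (0.40 and 0.30), with limma, Benjamini-Hochberg adjusted p = 0.0168, 0.0109, 0.00584 and 0.0365. The Cdk4 differences were lost without MLL-AF9 DMSO replicate 1 (0.25) and without MLL-AF6 DMSO replicate 1 (0.28), and the Cdk6 difference from MLL-AF6 without replicate 1 or 3 of either DMSO group (0.24 to 0.29). All 3 were lost with the DMSO libraries fitted alone and without replicate 1 or replicate 3 of every group. The Cdk6 difference from MLL-AF9 was lost without replicate 1 of every group (0.33). Median centring also ended the Cdk4 difference from MLL-AF9 (0.28), and dropping the filter ended the Cdk6 difference from MLL-AF6 (0.30). Cdkn1a was higher in MLL-AF1p than in MLL-AF6 by 0.69 (limma, Benjamini-Hochberg adjusted p = 0.00188). MLL-AF1p libraries were also the deepest, and depth and construct cannot be told apart. In all, 2 members were higher and 3 lower in MLL-AF6 than in MLL-AF9 under DMSO, where 29.1% and 24.5% of all genes tested were (53.6% in either direction). Against MLL-AF9, MLL-AF1p had 4 members higher and 2 lower (36.5% and 28.6%, 65.1% in either direction), and against MLL-AF6 it had 5 higher and none lower (28.8% and 23.7%, 52.5% in either direction). At an unadjusted p under 0.05, and by voom, the last count of lower members was also 0. DMSO libraries did not overlap for 4, 7 and 6 members in these comparisons, against 49.8%, 63.8% and 61% of all genes tested.

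The rest of the G1 to S machinery was read from a list of 25 genes, of which 24 were tested. In MLL-AF9, 11 rose and 4 fell with MI-2-2, in MLL-AF6 6 rose and 8 fell, and in MLL-AF1p 5 rose and 7 fell. Over all genes tested 28.5%, 18% and 19.1% rose and 27.9%, 38.9% and 26.3% fell. The median log2 changes were 0.18, −0.02 and −0.05, where the medians over all genes tested were −0.00, −0.16 and −0.06. Ccne1, the cyclin E that drives Cdk2 after the D cyclins, rose in each construct by 0.42, 0.42 and 0.38, for example from 17.4 ± 1.18 to 22.8 ± 0.389 RPKM in MLL-AF1p. E2f2, an activating E2F, rose in MLL-AF6 from 8.12 ± 1.67 to 17.3 ± 1.60 RPKM and in MLL-AF9 from 5.87 ± 1.41 to 10.3 ± 0.783, and its MLL-AF1p change of 0.32 did not pass. E2f8, a repressive E2F, rose in all 3 (0.79, 0.34 and 0.26), and E2f7, its relative, in MLL-AF9 and MLL-AF6 (0.88 and 0.40) but not in MLL-AF1p (−0.04). Cdc25a, the phosphatase that activates Cdk2, rose in MLL-AF9 (0.51) and MLL-AF1p (0.66), with a value of −0.05 in MLL-AF6.

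On the side of the falls, Mnat1, the assembly subunit of the kinase that activates Cdks, fell in each construct. Its DMSO means in MLL-AF9, MLL-AF6 and MLL-AF1p were 21.7 ± 0.483, 17.3 ± 1.52 and 23.9 ± 2.57 RPKM, and its MI-2-2 means 11.4 ± 0.292, 10.7 ± 1.09 and 13.4 ± 0.907. Tfdp2, a binding partner of E2F factors, fell in all 3 (−0.65, −0.61 and −0.72) from means of 1.30 to 1.87 RPKM. Every treated library had Tfdp2 at 0.969 RPKM or less. Tfdp2 thus passed the filter on low values only through DMSO libraries, and its falls were favoured by the filter. Cdkn2a, whose locus encodes the INK4 inhibitor p16 and Arf, fell in MLL-AF1p from 7.15 ± 0.678 to 2.94 ± 0.114 RPKM (−1.15) and rose in MLL-AF6 (0.34), with 0.16 in MLL-AF9, which did not pass. The adjusted p-values behind these calls, from limma with Benjamini-Hochberg adjustment, ran from 3.77e-07 for Mnat1 in MLL-AF9 to 0.0457 for Cdkn2a in MLL-AF6.

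Of 15 S phase genes that E2F factors drive, all tested, 11 rose and none fell in MLL-AF9, where 28.5% and 27.9% of all genes did. In MLL-AF6 2 rose and 1 fell (all genes 18% and 38.9%), and in MLL-AF1p 1 rose and none fell (19.1% and 26.3%). Whether the list responded differently between constructs was not tested. The counts of 0 falls were also 0 by voom, and at an unadjusted p under 0.05 limma gave 0 in MLL-AF9 and 1 in MLL-AF1p. The median log2 changes were 0.38, 0.07 and 0.18. Rrm2, a subunit of ribonucleotide reductase, stood at 36.6 ± 13.8 RPKM under DMSO and 68.3 ± 12.1 with MI-2-2 in MLL-AF9 (0.95), and Ccna2, the S phase cyclin A, at 23.7 ± 3.27 and 44.5 ± 5.18 (0.90), both called. Ccna2 also rose in MLL-AF6 (0.53). Mcm4 and Mcm5, subunits of the replicative helicase, rose in MLL-AF9 (0.77 and 0.81) and passed in neither other construct. The MLL-AF1p libraries fitted alone gave 5 rises and 2 falls, and the replicate block gave 3 rises. The MLL-AF9 count of 11 became 7 with median centring, with MLL-AF9 fitted alone, and without MLL-AF9 DMSO replicate 1 or MLL-AF9 MI-2-2 replicate 2.

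**Figure D4:**
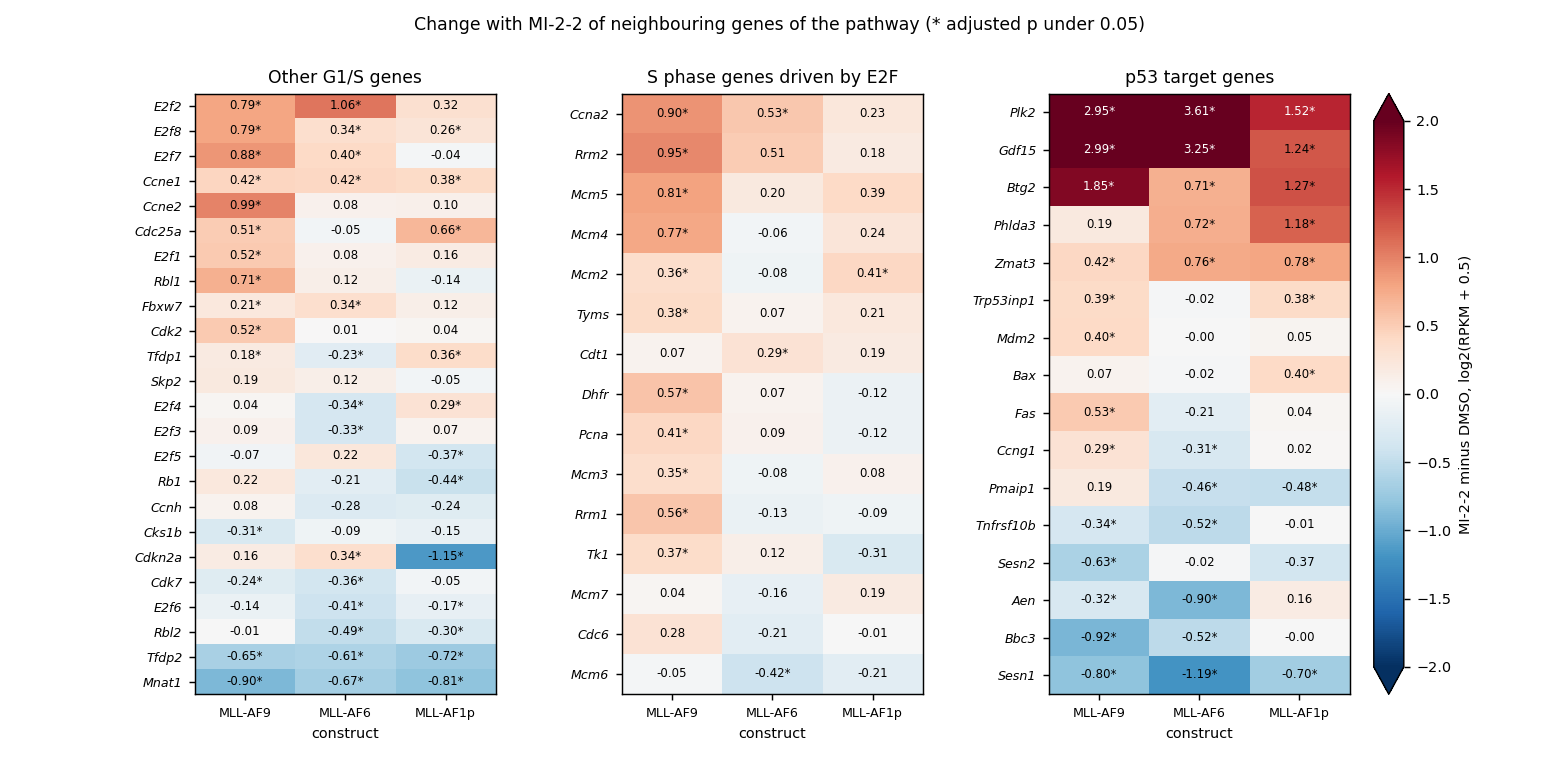
Difference between MI-2-2 and DMSO in mean log2(RPKM + 0.5) for the tested genes of the G1 to S list (24), the E2F-driven S phase list (15) and the p53 target list (16), in rows, for the 3 constructs in columns, red for higher and blue for lower with colours capped at 2 and −2. Numbers are the differences and stars mark an adjusted p under 0.05; 11 of the 15 S phase genes are starred in MLL-AF9, and Plk2, Gdf15 and Btg2 are starred as higher in all 3 constructs.

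Since Cdkn1a is a classic p53 target, other targets of p53 were read beside it. Of 18 listed, 16 were tested, with 8, 5 and 7 rises and 5, 6 and 2 falls in MLL-AF9, MLL-AF6 and MLL-AF1p, and median changes of 0.24, −0.02 and 0.11. The shares of all genes were 28.5%, 18% and 19.1% for rises and 27.9%, 38.9% and 26.3% for falls. Plk2, a kinase induced by stress, stood at 0.0792 ± 0.0427, 0.252 ± 0.268 and 0.0687 ± 0.0296 RPKM under DMSO and at 4.11 ± 1.32, 8.33 ± 0.863 and 1.13 ± 0.0558 with MI-2-2. Gdf15, a secreted stress cytokine, rose by 2.99, 3.25 and 1.24, and Btg2, an antiproliferative gene, by 1.85, 0.71 and 1.27. Sesn1, a stress-induced regulator of growth signalling, fell in all 3 by 0.80, 1.19 and 0.70. Plk2, Gdf15 and Btg2 changed in the direction opposite to the Cdkn1a values in each construct, and Sesn1 in the same one (limma, Benjamini-Hochberg adjusted p from 1.72e-09 for Plk2 in MLL-AF6 to 0.0142 for Btg2 in MLL-AF6). Cdkn1a itself was called only in MLL-AF1p. The named targets were picked for the greatest mean absolute change and do not stand for the list, which held both rises and falls in each construct. Plk2 passed the filter only through its treated libraries, so its rises were favoured by the filter.

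The genes whose log2(RPKM + 0.5) followed each member most closely over the 18 libraries were found among genes with a mean of at least 5 RPKM, of which there were 7594 or 7595. These correlations describe libraries that share constructs, treatments and depth. Cdkn2c was matched most closely, by Mis18a (Pearson r = 0.977), Esco2 (0.970) and Ncapg2 (0.963), and Cdk6 by Rsbn1 (0.976), Edc3 (0.969) and Chsy1 (0.967). Cdkn1a was followed by Dtd2 (0.963), Eif2d (0.954) and Atp5s (0.942), and Cdk4 by Isoc2a (0.939), Pik3ip1 (0.936) and Entpd6 (0.936). Genes following Cdkn1b included Zdhhc17 (0.935) and Atxn7l1 (0.934). Ccnd2 was followed by Coq4 (0.925), Cep89 (0.920) and Ube2s (0.897), and Ccnd1 by Slc27a4 (0.922), Klhdc4 (0.915) and Mogat2 (0.901). Ccnd3 was followed by Smarcal1 (0.915), Pdlim2 (0.906) and Exosc10 (0.889), and Cdkn2d by Olfml2b (0.909), Ap2a2 (0.906) and Atg16l2 (0.884). Cdkn1c had the loosest matches, Gde1 (0.875), Rilpl2 (0.846) and Lgals1 (0.843).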

How the data were processed

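Total RNA with an integrity number of at least 8 was made into polyA libraries with the TruSeq mRNA v2 kit, which does not mark the strand, and sequenced on an Illumina HiSeq, per the labels' protocols. The mm9 build, HTSeq, edgeR, Bowtie2 2.0.0.7 and CASAVA 1.8.2 are listed, with no role, in the submitters' processing notes. The authors deposited RPKM per gene and library with gene lengths, per the file headers. Multiplied by length, these values add up to 1 common total per library and are whole multiples of the value of 1 read (100% of them, tolerance 0.05), so reads and depth could be recovered (21.18 to 56.3 M, M being 1000000).

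Groups came from the labels, and no library was left out. Genes reaching an RPKM of 1 in 3 or more libraries were tested with limma 3.58.1 (R 4.3.3) on log2(RPKM + 0.5), 1 fit of 6 group means with 12 residual degrees of freedom, a trended prior and Benjamini-Hochberg adjustment within each comparison, and the code was tested on simulated data. The genes, lists, rule for naming genes and alternatives were chosen with earlier results of these data known. The rule names all 10 members, up to 8, 4 and 4 called genes of the G1 to S, E2F and p53 lists with the greatest mean absolute change, and the 3 genes most correlated with each member, of which 1 is not reported here. Genes named on overlaps are exceptions, found with the GENCODE annotation of GRCm38, from which no position was mixed with mm9. Alternatives were a pseudocount of 0.1, no filter, median centring, quantile normalization, a constant prior, a replicate block, voom on recovered reads, separate fits and each library left out. Leaving out 1 replicate number in every group was added after seeing the data. Plots used Python 3.11.15 and matplotlib 3.10.9.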

Additional observations from a re-analysis of the deposited data

Results flagged for a closer look

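Each gene here was listed because its response to MI-2-2 differed between the 3 constructs in the F test of limma, with a Benjamini-Hochberg adjusted p under 0.05, as 52.8% of all genes tested did. Among the members the adjusted p was 0.0171 for Cdk6, 0.000791 for Ccnd1, 0.000898 for Cdkn1b, 1.48e-06 for Cdkn1c and 9.99e-06 for Cdkn2c. For Ccnd1 and Cdkn1c these p-values were favoured by the filter on low values, which both passed only through treated groups. Cdkn1c had log2 changes of −0.98, 2.48 and 0.22 in MLL-AF9, MLL-AF6 and MLL-AF1p, and Cdkn2c of 1.64, 0.76 and −0.28.

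Of the G1 to S genes named, Cdkn2a had an adjusted p of 4.18e-05 in that limma F test, Cdc25a 0.000533, E2f8 0.00215, E2f7 0.00226 and E2f2 0.0215. Of the S phase genes, Mcm4 had 0.00576 and Ccna2 0.00606. Of the p53 targets, Plk2 had 0.000205, Gdf15 0.00566, Sesn1 0.0143 and Btg2 0.0219. Plk2 passed the filter on low values only through treated libraries, which favoured its p-value and its rises. It rose in every construct, most in MLL-AF6 (3.61) and least in MLL-AF1p (1.52). The causes of these differences were not tested.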

How the results depend on the processing

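Of the 870 values of MI-2-2 against DMSO recomputed for the members, 797 kept direction and call, 29 lost the call, 32 gained one and 12 changed sign. In many of these settings the log2 change could not move. Leaving out a library outside the comparison, a constant prior, the replicate block and a separate fit alter only the SE and adjusted p. The counts kept, here and below, therefore overstate how far direction was put to the test. For differences of effect between constructs the counts were 784, 19, 14 and 23 of 840, and for constructs under DMSO 808, 26, 25 and 11 of 870. Calls for Cdk6 (each construct), Cdkn1c and Cdkn2c (MLL-AF9 and MLL-AF6), Cdkn1b and Ccnd1 (MLL-AF6 and MLL-AF1p) held under all 29 alternatives. Members called higher in MLL-AF9 numbered 1 with that construct fitted alone, and in MLL-AF1p 1 with no filter and 4 with it fitted alone. With 1 library left out, or 1 replicate number left out of every group, the counts of members higher and lower ran from 1 to 3 and 2 to 5 in MLL-AF9, 3 to 4 and 2 to 3 in MLL-AF6, and 1 to 3 and 2 to 4 in MLL-AF1p. Counts over all genes ran from 2032 to 3399 higher and 1686 to 3238 lower in MLL-AF9, 1186 to 2180 and 2063 to 4697 in MLL-AF6, and 930 to 2396 and 1156 to 3355 in MLL-AF1p, each lowest without replicate 3 of every group. Counts on the list genes moved most for the S phase genes, from 11 to 5 in MLL-AF9 without replicate 3 of every group.

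The sign changes concerned values that were not called. With median centring and quantile normalization, Cdkn1b in MLL-AF9 was −0.073 and −0.0049, and the Cdkn1a effect in MLL-AF6 minus MLL-AF9 0.12 and 0.075. With quantile normalization, the effects in MLL-AF1p minus MLL-AF6 were 0.15 for Ccnd2 and −0.014 for Cdkn2d, and Cdk4 in MLL-AF6 minus MLL-AF9 under DMSO was 0.0019. With 1 library left out, log2 changes ran in MLL-AF9 from −0.064 to 0.082 for Cdkn1b and −0.0016 to 0.22 for Cdkn2d, and in MLL-AF6 from −0.055 to 0.20 for Cdk4 and −0.019 to 0.10 for Ccnd3. Effects ran from −0.23 to 0.12 for Cdkn1a (MLL-AF6 minus MLL-AF9), from −0.015 to 0.25 for Cdk4, −0.10 to 0.19 for Cdk6 and −0.24 to 0.065 for Ccnd3 (MLL-AF1p minus MLL-AF9), and from −0.24 to 0.21 for Ccnd2 and −0.10 to 0.23 for Cdkn2d (MLL-AF1p minus MLL-AF6). Differences under DMSO ran from −0.17 to 0.094 for Cdk4 and −0.040 to 0.25 for Cdk6 (MLL-AF6 minus MLL-AF9), and from −0.0096 to 0.058 for Ccnd3 and −0.22 to 0.11 for Cdkn2d (MLL-AF1p minus MLL-AF6). Without 1 replicate number in every group, Ccnd2 and Cdkn1b (MLL-AF9) and Ccnd3 (MLL-AF6) reached 0.053, −0.071 and −0.0044. In the same setting, effects reached 0.058 for Cdkn1a (MLL-AF6 minus MLL-AF9), −0.13 for Cdk6 and 0.060 for Ccnd3 (MLL-AF1p minus MLL-AF9), and 0.14 for Ccnd2 and −0.064 for Cdkn2d (MLL-AF1p minus MLL-AF6). Differences under DMSO there reached −0.11 for Cdk6 (MLL-AF6 minus MLL-AF9), and −0.038 for Ccnd3 and 0.076 for Cdkn2d (MLL-AF1p minus MLL-AF6). The causes were not tested.

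Whether replicate numbers pair the libraries is not settled. Deviations of same-numbered libraries correlated at 0.00079 to 0.557, 5 of 9 pairs over 0.1, those of other numbers at −0.565 to 0.342, and 11 of 18 libraries correlated best with their own number. With the replicate block, counts over all genes rose from 3203 to 3475 higher and 3136 to 3439 lower in MLL-AF9, 2025 to 2242 and 4377 to 4806 in MLL-AF6, and 2150 to 2449 and 2953 to 3489 in MLL-AF1p. Among members the block added Cdkn1a lower and Cdkn2d higher in MLL-AF6, and Ccnd3 higher in MLL-AF1p. Depth limits the low genes, with 10 to 29 reads for Cdkn1c in MLL-AF6 DMSO and 16 to 31 for Cdkn2c in MLL-AF9 DMSO.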
